A study of Mus musculus with 6 samples.

Results

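A set of 10 genes of the CD94/NKG2 receptor system was followed in mouse natural killer (NK) cell cultures, taken by name as the genes of the CD94 and NKG2 lectins (Klrd1, Klrc1, Klrc2, Klrc3 and Klrk1), of the related lectins KLRE1, KLRI1 and KLRI2 (Klre1, Klri1 and Klri2) and of the signalling adaptors DAP10 and DAP12 (Hcst and Tyrobp). All 10 were among the 56953 Ensembl genes of the files and among the 15591 genes that passed the filter on low counts, and none was below 7 CPM in any library, so none passed through 1 group alone. The hypoxia group was wild-type splenic NK cells kept for 7 days at 1% oxygen, and the normoxia group was the same kind of culture kept for 7 days at 20% oxygen, both with 5% CO2 and 1700 U/ml of human interleukin-2, with 3 libraries each. Both groups were C57BL/6 cells expanded in a high dose of a growth factor, so neither group shows NK cells as they are in the spleen. The labels call the libraries biological replicates and do not say whether mice or cultures were separate, so p-values here reflect only how far these libraries spread, which may be technical.

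CD94 has almost no signalling part of its own and pairs with an NKG2 protein. With NKG2A it forms an inhibitory receptor that recruits phosphatases through its tail, and with NKG2C or NKG2E an activating receptor that signals through DAP12, both reading the non-classical class I molecule Qa-1 loaded with a peptide cut from the leaders of some classical class I proteins. NKG2D forms homodimers that read stress-induced ligands and signal through DAP10, which binds phosphoinositide 3-kinase and the Grb2-Vav1 module, and a short mouse isoform can also use DAP12, which recruits Syk and Zap70. In rat, KLRE1 pairs with KLRI1 as an inhibitory receptor or with KLRI2 as an activating one.

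The total estimated count ran from 55104810 to 55794698 per library, which put 1 count at about 0.018 CPM (the count scaled to the library total), and the 2 replicate 1 libraries stood apart on the second principal component (scores 23.2 in hypoxia and 35.0 in normoxia, with -20.2 to -11.4 for the rest). The labelled cell type was checked against 6 NK cell markers: all exceeded 1 CPM, and their summed level was 5129 to 5940 CPM in hypoxia and 6210 to 7411 CPM in normoxia, with Il2rb and Prf1 the most abundant. Of the 6, 1 was called lower in hypoxia and 0 higher, where 9.72% of all tested genes were called lower and 11.2% higher. It was Eomes (log2 fold change -0.63, edgeR adjusted p = 0.0028). Il2rb, Prf1 and Ncr1 had uncalled log2 fold changes of -0.30, -0.27 and -0.23, and Klrb1c and Tbx21 of 0.060 and 0.14. Among other cell types, 9 T cell markers summed to 166 to 212 CPM in hypoxia and 112 to 131 CPM in normoxia (Cd3g and Cd3d the most abundant), 7 B cell markers to 72.9 to 77.9 and 54.8 to 70.3 CPM (Ighm and Cd79b), and 5 markers of other innate lymphoid cells to 503 to 555 and 377 to 445 CPM (Itga1 and Cxcr6), genes of which NK cells also use several. The 6 dendritic cell markers summed to 4.33 to 5.18 CPM in hypoxia and 6.54 to 6.82 CPM in normoxia (Zbtb46 and Xcr1), and the 8 neutrophil markers to 1.35 to 2.68 and 0.127 to 0.324 CPM (Ngp and S100a9). In bulk samples, fewer cells of a type and less RNA per cell cannot be told apart.

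In the fit without a block, Hcst was the only one of the 10 genes that rose in hypoxia, and Klre1 the only one that fell. That is 2 of 10 genes, or 1 in each direction, where over all 15591 tested genes 20.9% were called (11.2% higher and 9.72% lower), a share near the background. With the replicate number as a blocking term (the replicate block), which pairs the libraries, Klrk1, Klri1 and Klri2 were called lower too (edgeR adjusted p = 0.0026, 0.047 and 0.0050), each lower in 3 of 3 pairs, and 39.2% of all tested genes were called in that fit. Klrd1, Klrc1, Klrc2, Klrc3 and Tyrobp were not called in either fit. The median log2 fold change, hypoxia over normoxia, was -0.15 over the 10 genes and -0.0052 over all tested genes, and the median absolute log2 fold change was 0.22 over the 10 genes and 0.20 over all.

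**Figure D1:**
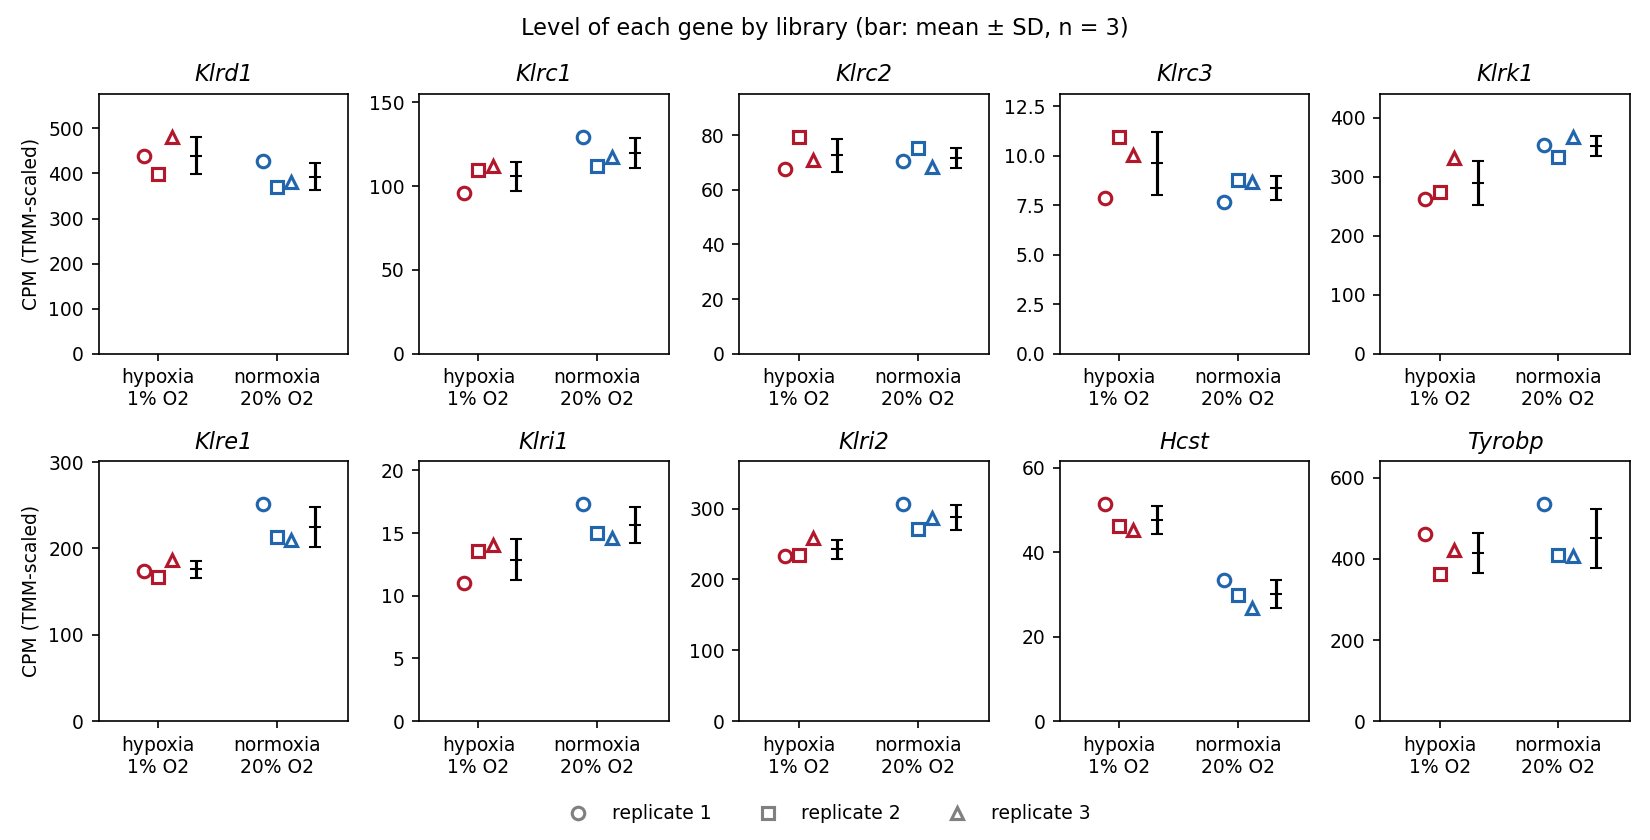
Level of each gene in CPM scaled with TMM (vertical axis, from 0), in the 3 hypoxia libraries (red, left) and the 3 normoxia libraries (blue, right), with mean ± SD in black. Hcst is higher in all 3 hypoxia libraries, Klrk1, Klre1, Klri1 and Klri2 are lower in all 3, and the libraries of the other 5 genes overlap.

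The adaptor genes differed from each other. Hcst, the gene of DAP10, had 51.3, 46.1 and 45.2 CPM in hypoxia, against 33.5, 29.7 and 26.8 CPM in normoxia. Every hypoxia library was above every normoxia library, and the groups did not overlap. The rise was 1.58-fold (log2 fold change 0.66, SE 0.10, edgeR quasi-likelihood test, adjusted p = 0.0012), higher in 3 of 3 same-numbered pairs of libraries. It was called in all 15 other settings tried, with log2 fold changes between 0.59 and 0.75. Tyrobp, the gene of DAP12, had 460, 362 and 422 CPM in hypoxia, against 535, 409 and 408 CPM in normoxia. These groups overlapped, and the replicate 1 library was the highest in each. The log2 fold change was -0.12 (95% interval -0.40 to 0.16, edgeR adjusted p = 0.56), and without the replicate 1 normoxia library it was 0.020.

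Hcst and Tyrobp are also expressed by myeloid cells. The 10 monocyte and macrophage markers summed to 50.9 to 83.6 CPM in hypoxia and 15.6 to 29.3 CPM in normoxia, and nearly all of it was Cd68 (61.9 ± 16.5 CPM in hypoxia, 16.4 ± 6.15 CPM in normoxia, SD, n = 3 each) and Cd14 (1.47 ± 0.303 and 3.88 ± 0.637 CPM). Of the markers that define these cells, C1qa was at 0 counts in all 6 libraries, and Adgre1, Fcgr1, C1qb and C1qc were each below 0.1 CPM in both groups. Csf1r averaged 1.03 ± 0.216 CPM under hypoxia and 1.06 ± 0.294 CPM under normoxia. Lyz2 averaged 0.310 CPM in hypoxia, against 0 counts in all 3 normoxia libraries, and was called higher (edgeR adjusted p = 0.0019). It passed the filter on low counts only through the hypoxia libraries, so it could only be called higher and its call is not read as a result. With it, 2 of the 4 tested markers of this list were higher and 1 lower, where 11.2% of all tested genes were called higher and 9.72% lower. The 6 basophil and mast cell markers summed to 76.2 to 89.8 CPM in hypoxia and 19.1 to 27.3 CPM in normoxia, mainly Mcpt8 (79.7 ± 6.61 and 21.1 ± 4.10 CPM), followed by Cpa3 (1.96 ± 0.471 and 0.704 ± 0.498 CPM), whereas Fcer1a and Ms4a2 were below 0.1 CPM. The part of these transcripts in the rise of Hcst was not tested.

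The 2 adaptor genes are neighbours on mouse chromosome 7, Tyrobp on the plus strand and Hcst on the minus strand, and in the GENCODE M21 annotation neither overlaps another gene. In RefSeq order the gene beyond Hcst is Nfkbid, whose log2 fold change was -0.15 (SE 0.10, edgeR adjusted p = 0.36). The lectin genes lie on chromosome 6 in 2 runs, Klre1, Klrd1, Klrk1, Klrc3, Klrc2 and Klrc1 in one and Klri1 and Klri2 in the other, with Klre1 and Klrd1 on the plus strand and the rest on the minus strand. The gene before Klre1, Gabarapl1, differed by 0.041 log2 units (SE 0.08, edgeR adjusted p = 0.77). Of the genes at the other ends of these runs, Gm7309 and Mir680-1 were not tested, at a mean of at most 0.0063 CPM.

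Promoter windows from RefSeq (GRCm38.p6, 250 bases before to 50 after a start, an earlier build than the authors' GRCm39) were found for 7 of the 10 genes, in 9 windows. They are shown for the gene that rose, for the gene that fell, for Klrk1, and for Klrc2 and Klrc3, whose windows are near-identical. Capitals mark the hypoxia response element cores ACGTG and GCGTG and the RUNX-type hexamer TGTGGT, searched on both strands.
Hcst, chr7:30419805-30420104, minus strand: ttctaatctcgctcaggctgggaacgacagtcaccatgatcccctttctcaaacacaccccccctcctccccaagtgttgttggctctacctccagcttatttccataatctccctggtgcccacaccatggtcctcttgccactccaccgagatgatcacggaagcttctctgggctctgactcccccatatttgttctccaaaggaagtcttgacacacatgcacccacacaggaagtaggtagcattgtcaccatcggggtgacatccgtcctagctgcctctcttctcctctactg
Klre1, chr6:129577963-129578262, plus strand: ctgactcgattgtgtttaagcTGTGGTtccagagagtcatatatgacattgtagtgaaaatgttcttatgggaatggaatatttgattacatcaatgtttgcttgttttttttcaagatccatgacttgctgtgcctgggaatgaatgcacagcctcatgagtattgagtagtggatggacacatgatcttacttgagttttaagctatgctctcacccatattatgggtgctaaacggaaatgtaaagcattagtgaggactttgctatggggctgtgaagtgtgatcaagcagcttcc
Klrk1, chr6:129623815-129624114, minus strand: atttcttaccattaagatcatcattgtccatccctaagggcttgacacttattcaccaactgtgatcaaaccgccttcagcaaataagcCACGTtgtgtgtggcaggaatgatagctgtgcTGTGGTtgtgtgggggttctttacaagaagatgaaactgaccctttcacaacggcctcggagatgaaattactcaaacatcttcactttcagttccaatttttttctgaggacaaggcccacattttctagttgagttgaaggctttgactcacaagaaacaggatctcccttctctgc
Klrc2, chr6:129660507-129660806, minus strand: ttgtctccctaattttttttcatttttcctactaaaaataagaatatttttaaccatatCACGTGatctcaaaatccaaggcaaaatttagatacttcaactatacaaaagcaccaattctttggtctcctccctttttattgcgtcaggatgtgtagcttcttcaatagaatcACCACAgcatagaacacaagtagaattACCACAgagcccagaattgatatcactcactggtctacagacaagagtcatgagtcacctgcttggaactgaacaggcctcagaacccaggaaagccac
Klrc3, chr6:129643239-129643538, minus strand: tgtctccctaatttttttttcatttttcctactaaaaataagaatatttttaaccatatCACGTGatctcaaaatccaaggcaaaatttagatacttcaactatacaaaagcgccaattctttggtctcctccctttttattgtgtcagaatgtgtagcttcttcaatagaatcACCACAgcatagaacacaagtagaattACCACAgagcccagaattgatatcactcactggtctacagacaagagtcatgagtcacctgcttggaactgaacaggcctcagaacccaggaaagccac

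ACGTG was present in 4 of the 9 windows (both overlapping windows of Klrc2, that of Klrc3 and that of Klrk1) and in 19.6% of all 32851 windows of this length. GCGTG was in 0 of the 9 and in 32.4% of all, and TGTGGT in 6 of the 9 and in 16.8% of all. In Klrc2 and Klrc3 the match is the palindrome CACGTG, which reads as ACGTG on either strand. The windows of Hcst and Klri1, and the second of the 2 windows of Klre1, held none of these motifs. The windows of Klrc2 and Klrc3 shown were identical at 296 of 299 aligned bases (99.0%), so they are not independent examples. A match is a description of the letters only.

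The NKG2D gene Klrk1 lay lower in hypoxia, and whether it was called depended on the setting. Klrk1 had 262, 274 and 331 CPM in hypoxia, against 354, 334 and 367 CPM in normoxia. The highest hypoxia library was just below the lowest normoxia library, so the groups did not overlap. The log2 fold change was -0.28 (95% interval -0.50 to -0.061, edgeR adjusted p = 0.072), lower in 3 of 3 same-numbered pairs. In the replicate block fit the edgeR adjusted p was 0.0026, and it also passed with no filter on low counts (0.033), with the DESeq2 Wald test (0.030) and without hypoxia replicate 3 (0.022). Klrk1, Klrd1 and Klrc1 are also expressed by some CD8 T cells. Cd3e averaged 11.3 ± 2.67 CPM under hypoxia and 11.7 ± 1.19 CPM under normoxia, and Cd8a 14.02 ± 4.44 and 12.7 ± 1.88 CPM. In contrast, Cd3g, Cd3d and Cd4 rose (3 of 9 T cell markers, 0 lower), where 11.2% of all tested genes were called higher and 9.72% lower. Cd4 was at a low level (a mean of 0.70 CPM under hypoxia and 0.22 CPM under normoxia), and its normoxia libraries alone would not have passed the filter on low counts. The part of T cells in the values of these receptor genes was not tested. The Klrk1 counts sum the long and short NKG2D isoforms, which the gene-level files do not separate.

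Set against its adaptors within each library, Klrk1 stood lower relative to Hcst in every hypoxia library, and its ratio to Tyrobp overlapped between the groups. Such ratios do not depend on how libraries are scaled. The log2 ratio of Klrk1 over Hcst counts was 2.35, 2.57 and 2.87 in hypoxia, against 3.40, 3.49 and 3.78 in normoxia. All hypoxia libraries were below all normoxia libraries, and the ratio was 1.94-fold lower in hypoxia (log2 difference -0.95). The exact two-sided permutation p was 0.1, the smallest that 3 libraries against 3 can give, and 0.2 after Benjamini-Hochberg adjustment over the 6 ratios computed. For Klrk1 over Tyrobp the log2 difference was -0.17 with overlapping groups (exact permutation p = 0.4, adjusted 0.48). Hcst over Tyrobp was -3.17, -2.97 and -3.22 in hypoxia, against -4.00, -3.78 and -3.93 in normoxia, a log2 difference of 0.78 without overlap (exact permutation p = 0.1, adjusted 0.2).

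**Figure D2:**
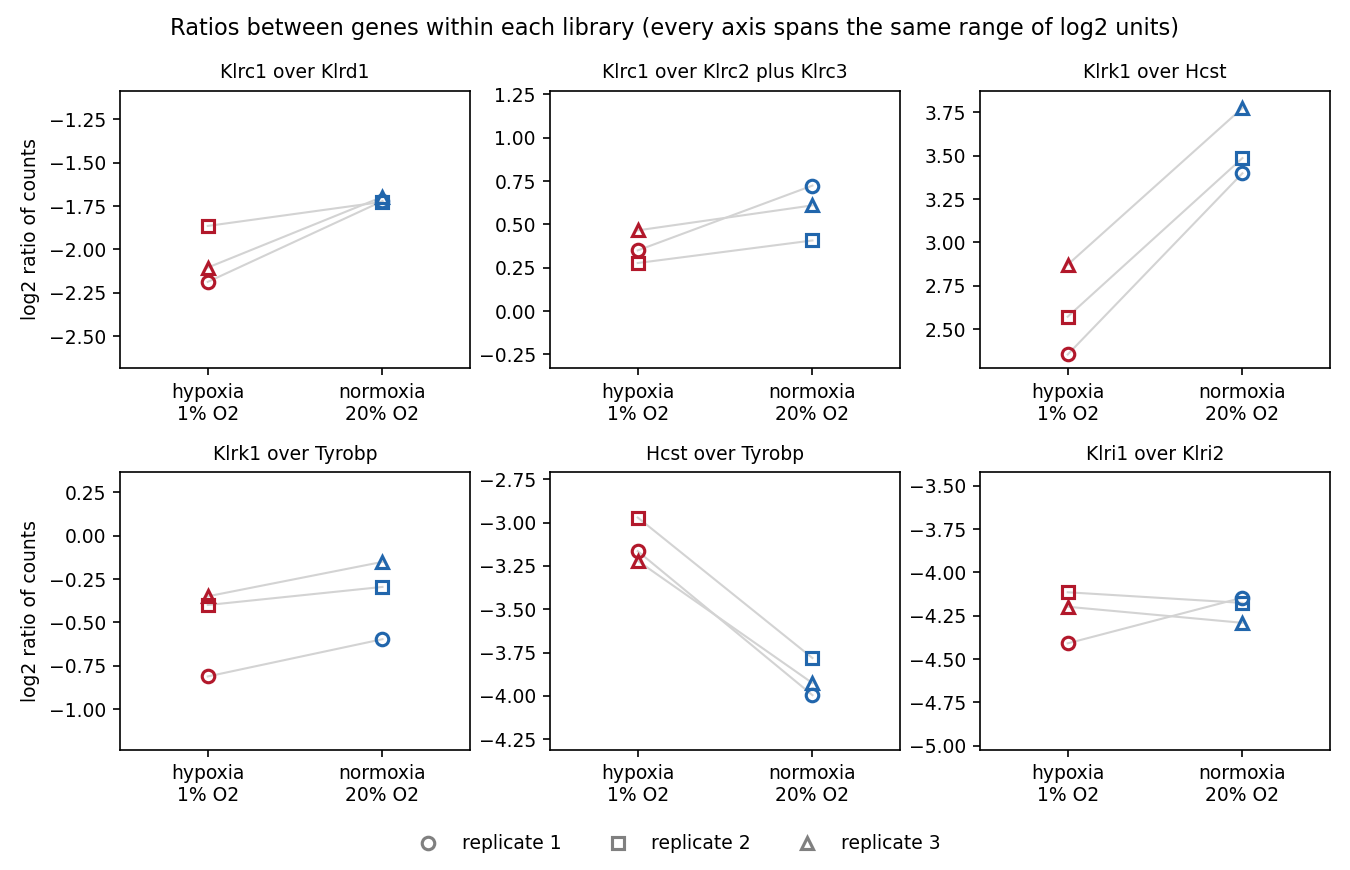
Log2 ratio of counts between 2 genes in the same library (vertical axes, each spanning the same range), in hypoxia (red, left) and normoxia (blue, right), with a grey line joining same-numbered libraries. Klrk1 over Hcst is lower by 0.95 and Hcst over Tyrobp higher by 0.78 in hypoxia, without overlap, and Klri1 over Klri2 differs by -0.037.

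CD94 and its NKG2 partners were not called in either direction. Klrd1, the CD94 gene, had 438, 399 and 481 CPM in hypoxia, against 427, 369 and 381 CPM in normoxia. It was higher in 3 of 3 same-numbered pairs, but the groups overlapped. The log2 fold change was 0.16 (95% interval -0.048 to 0.37, edgeR adjusted p = 0.26, or 0.058 in the replicate block fit). Klrc1, the gene of the inhibitory partner NKG2A, had 96.2, 109 and 112 CPM in hypoxia, against 129, 112 and 118 CPM in normoxia. It was lower in 3 of 3 pairs, with hypoxia replicate 3 and normoxia replicate 2 nearly equal. Its log2 fold change was -0.18 (95% interval -0.37 to 0.017, edgeR adjusted p = 0.19, or 0.068 in the replicate block fit).

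Because Klrd1 and Klrc1 lay on opposite sides of 0, their ratio moved more than either gene. The log2 ratio of Klrc1 over Klrd1 was -2.19, -1.86 and -2.10 in hypoxia, against -1.72, -1.73 and -1.70 in normoxia. The normoxia libraries lay close together (SD 0.016) and all hypoxia libraries were below them. The ratio was 1.26-fold lower in hypoxia (log2 difference -0.34, exact permutation p = 0.1, adjusted 0.2 over the 6 ratios).

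The activating partners were not called either. Klrc2, the NKG2C gene, had 67.6, 79.4 and 71.0 CPM in hypoxia, against 70.7, 75.5 and 68.4 CPM in normoxia. The groups overlapped fully, with a log2 fold change of 0.023 (95% interval -0.16 to 0.20, edgeR adjusted p = 0.88). Klrc3, the NKG2E gene, had 7.87, 10.96 and 10.05 CPM in hypoxia, against 7.69, 8.78 and 8.70 CPM in normoxia. It was higher in 3 of 3 pairs, but hypoxia replicate 1 lay among the normoxia libraries. Its log2 fold change was 0.20 (95% interval -0.097 to 0.49, edgeR adjusted p = 0.33). The ratio of Klrc1 over the sum of Klrc2 and Klrc3, inhibitory over activating partners, had a log2 difference of -0.22 with overlapping groups (exact permutation p = 0.2, adjusted 0.3).

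The 3 Klrc genes share much of their transcript sequence, and the authors' estimated counts divide reads between them. In GENCODE M21 coding transcripts, 49.6% of the 31-base words of Klrc1 also occurred in Klrc2, 45.8% of those of Klrc3 occurred in Klrc2, and 30.4% of those of Klrc2 occurred in Klrc1. The values of these genes taken singly are therefore uncertain. The same holds for the ratios of Klrc1 over Klrd1 and of Klrc1 over the sum of Klrc2 and Klrc3. Summed into 1 feature, Klrc1, Klrc2 and Klrc3 had a log2 fold change of -0.085 (95% interval -0.27 to 0.097, edgeR adjusted p = 0.52), and Klrc2 and Klrc3 together 0.042 (95% interval -0.14 to 0.23, edgeR adjusted p = 0.77). Klrd1, Hcst and Tyrobp shared 0% of their words with any other gene, Klrk1 0.029% and Klre1 0.396%.

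**Figure D3:**
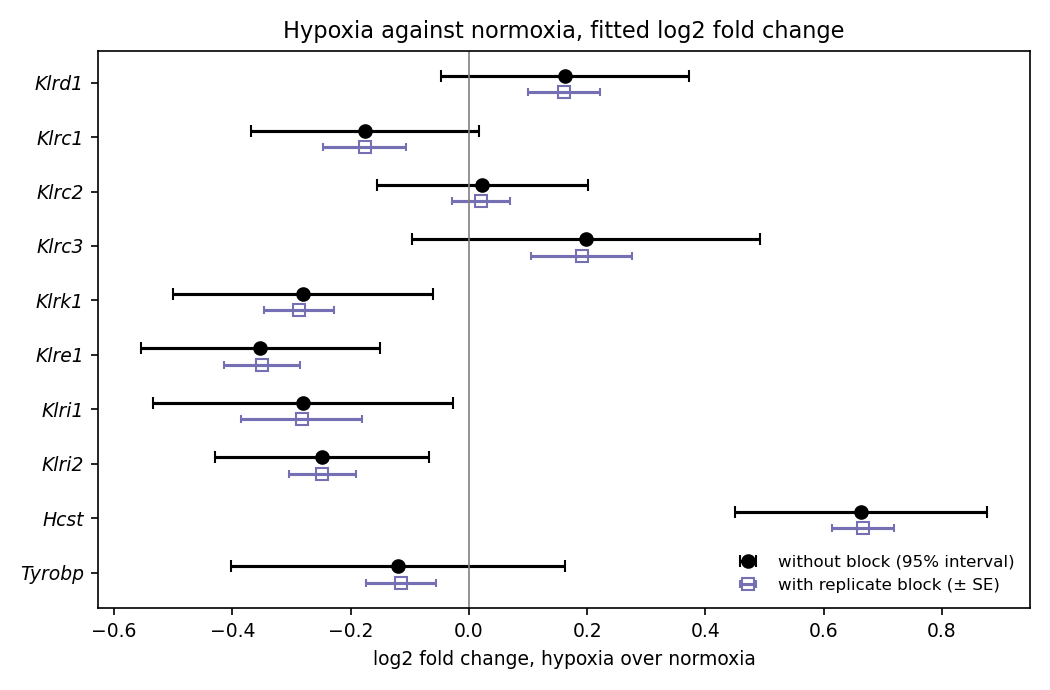
Log2 fold change, hypoxia over normoxia (horizontal axis), with its 95% interval in the fit without a block (black) and ± SE in the fit with the replicate block (purple). The interval of Hcst (0.45 to 0.88) lies above 0, those of Klrk1, Klre1, Klri1 and Klri2 lie below 0 before adjustment for 15591 tests, and the other 5 include 0.

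The 3 genes of the KLRE/KLRI receptors all lay lower in hypoxia, and 1 of them fell. Klre1, the subunit shared by both receptors in rat, had 174, 167 and 187 CPM in hypoxia, against 251, 213 and 210 CPM in normoxia. The groups did not overlap, and normoxia replicate 1 stood above the rest. The log2 fold change was -0.35 (SE 0.09, edgeR adjusted p = 0.021), lower in 3 of 3 pairs. The call was lost without hypoxia replicate 1 (log2 fold change -0.35, edgeR adjusted p = 0.057) and without hypoxia replicate 2 (-0.30, edgeR adjusted p = 0.11). It held without both replicate 1 libraries.

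Klri2, the subunit that is activating in rat, had 234, 235 and 259 CPM in hypoxia, against 306, 271 and 287 CPM in normoxia. These groups did not overlap either, and 3 of 3 pairs were lower. The log2 fold change was -0.25 (95% interval -0.43 to -0.068), just short of the threshold (edgeR adjusted p = 0.055), and it passed with the replicate block (0.0050), the DESeq2 Wald test (0.019) and limma-voom (0.049). Klri1, the subunit that is inhibitory in rat, had 10.99, 13.5 and 14.1 CPM in hypoxia, against 17.3, 15.0 and 14.6 CPM in normoxia. Most of the distance came from the replicate 1 pair, whose log2 difference was -0.65, with -0.14 and -0.057 in the other pairs, and without both replicate 1 libraries the log2 fold change was -0.10. The log2 fold change was -0.28 (95% interval -0.54 to -0.027, edgeR adjusted p = 0.11, or 0.047 in the replicate block fit).

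The proportion of Klri1 to Klri2 overlapped between the groups. The log2 ratio of Klri1 over Klri2 was -4.41, -4.11 and -4.20 in hypoxia, against -4.15, -4.18 and -4.29 in normoxia, a difference of -0.037 (exact permutation p = 0.8, adjusted 0.8) that turned to 0.048 without hypoxia replicate 1. Of the words of Klri1, 15.3% also occurred in Klri2, and of those of Klri2 3.19% in Klri1.

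For 5 of the 10 genes the libraries of the 2 groups were fully separated, as they were for 38.3% of all tested genes. With the replicate block, 1 of the 10 was higher and 4 were lower (Klrk1, Klre1, Klri1 and Klri2), while 39.2% of all genes were called in that fit (19.2% higher and 20.0% lower). Use of library totals in place of TMM changed none of the 10 calls, although it lowered the size of the Klri2 difference to -0.17 and over all genes gave 2384 higher and 998 lower in place of 1745 and 1516. Summed over the 10 genes, the level was 1802, 1696 and 1932 CPM in hypoxia, against 2130, 1837 and 1890 CPM in normoxia, with overlapping groups.

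To compare levels between genes, CPM was divided by the median length of each gene's coding transcripts in GENCODE M21. Per kilobase of the median transcript, Tyrobp was the most abundant (714 ± 85.5 CPM per kb in hypoxia, 776 ± 125 in normoxia, SD, n = 3 each), followed by Klrd1 (491 ± 46.3 in hypoxia, 439 ± 33.7 in normoxia) and Klrk1 (228 ± 28.9 in hypoxia, 277 ± 13.4 in normoxia). Klrc1 (141 ± 11.2 in hypoxia, 159 ± 11.9 in normoxia) and Klre1 (136 ± 7.63 in hypoxia, 174 ± 17.6 in normoxia) were neighbours that did not differ beyond their spread in either group. Hcst was sixth in both groups, at 118 ± 8.13 CPM per kb in hypoxia and 74.3 ± 8.30 in normoxia. In normoxia it was level with Klri2 (61.9 ± 3.60 in hypoxia, 73.6 ± 4.51 in normoxia), whereas in hypoxia Hcst stood above both Klri2 and Klrc2 (66.2 ± 5.51 in hypoxia, 65.1 ± 3.28 in normoxia). Klri1 (15.4 ± 1.97 in hypoxia, 18.7 ± 1.72 in normoxia) and Klrc3 (13.5 ± 2.23 in hypoxia, 11.8 ± 0.851 in normoxia) came last. The choice of transcript matters for some: with the longest and shortest coding transcript the hypoxia level of Klrk1 ran from 90.5 to 284 CPM per kb, that of Klrc1 from 53.3 to 157 and that of Klrc2 from 25.8 to 103, so the order among Klrk1, Klrc1, Klre1, Hcst, Klrc2 and Klri2 is not settled by these values. Nor is the first place in hypoxia, since Klrd1 would reach 750 CPM per kb with its shortest transcript, against 695 to 735 for Tyrobp.

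**Figure D4:**
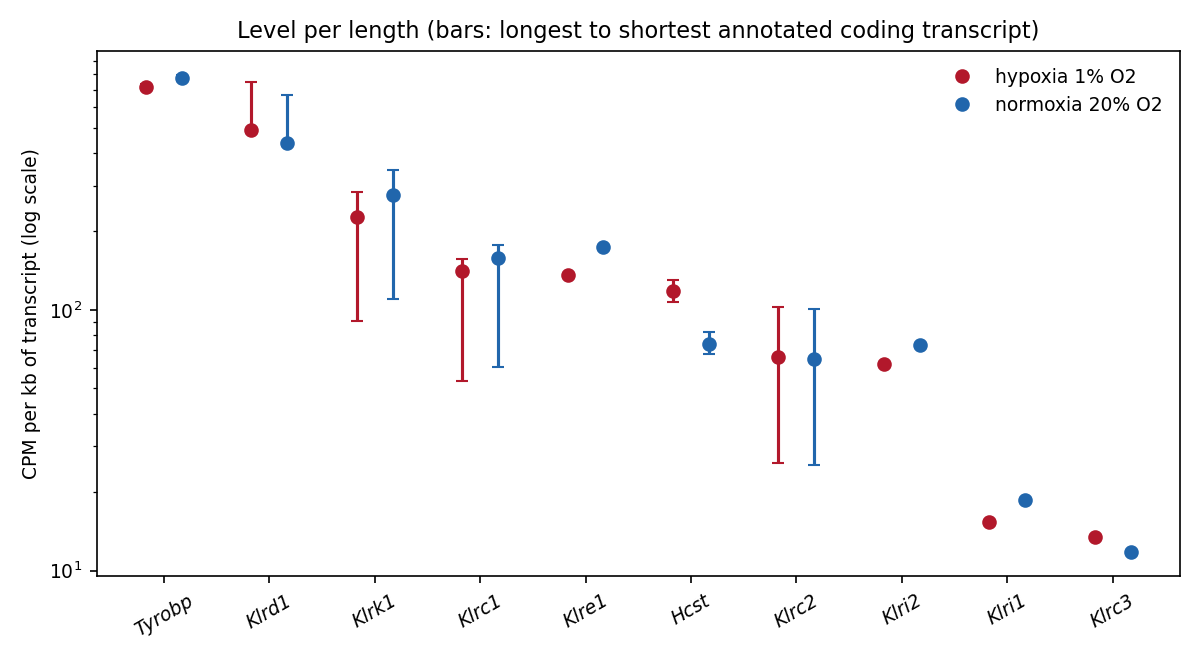
CPM per kilobase of coding transcript (vertical axis, log scale) in hypoxia (red, left of each pair) and normoxia (blue, right), with points at the median transcript length and bars from the longest to the shortest transcript. At the median length Tyrobp and Klrd1 lead in both groups, the bar of Klrd1 in hypoxia reaches above that of Tyrobp, and the bars of Klrk1, Klrc1 and Klrc2 are wide enough to change their order.

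Genes that carry the signal of DAP10 and DAP12 were called about as often as genes at large. Of 18 kinases and adaptors downstream, 1 rose, 3 fell and 14 were not called, where 20.9% of all tested genes were called (median log2 fold change -0.0014, against -0.0052 over all tested genes). Pik3cd, the gene of the catalytic phosphoinositide 3-kinase subunit p110 delta, had 488, 536 and 547 CPM in hypoxia, against 676, 789 and 751 CPM in normoxia, without overlap (log2 fold change -0.50, SE 0.09, edgeR adjusted p = 0.0035). Lcp2, the gene of the scaffold SLP-76, had 194, 196 and 213 CPM in hypoxia, against 285, 267 and 253 CPM in normoxia (log2 fold change -0.42, SE 0.08, edgeR adjusted p = 0.0050). Syk, the kinase that docks on the DAP12 motif, had 34.2, 32.7 and 33.5 CPM in hypoxia, against 41.2, 45.8 and 42.9 CPM in normoxia (log2 fold change -0.37, SE 0.07, edgeR adjusted p = 0.0055). For all 3 genes every hypoxia library was below every normoxia library, in 3 of 3 pairs.

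Plcg1, a phospholipase C gene, rose to 10.1, 15.0 and 11.5 CPM in hypoxia, against 6.99, 8.96 and 6.65 CPM in normoxia (log2 fold change 0.70, SE 0.16, edgeR adjusted p = 0.015, or 0.053 when fitted without hypoxia replicate 2). Of the uncalled members the most abundant were Lck, averaging 372 ± 26.0 CPM under hypoxia and 415 ± 4.13 CPM under normoxia (edgeR adjusted p = 0.18), and Pik3r1, the regulatory subunit gene, at 347 ± 9.90 and 373 ± 15.2 CPM (edgeR adjusted p = 0.36). Zap70, which can stand in for Syk at DAP12, had a log2 fold change of 0.17 (edgeR adjusted p = 0.20, or 0.024 in the replicate block fit), on the other side of 0 from Syk; this gene was chosen after its values were seen. With the replicate block 4 of the 18 were higher and 5 lower, where 39.2% of all tested genes were called.

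Of the 3 phosphatase genes that act behind inhibitory receptors such as CD94/NKG2A, 0 were called by edgeR, and Ptpn6 alone had an unadjusted p under 0.05. Ptpn6, the SHP-1 gene, had 210, 243 and 299 CPM in hypoxia, against 170, 188 and 229 CPM in normoxia. It was higher in 3 of 3 pairs, the pairs sat at different levels, and the groups overlapped. Its log2 fold change was 0.36 (SE 0.14, edgeR adjusted p = 0.11). It passed in the replicate block fit (edgeR adjusted p = 0.00019). The DESeq2 Wald test called 0 of the 3. Inpp5d, the SHIP-1 gene, averaged 251 ± 3.45 CPM under hypoxia and 243 ± 6.05 CPM under normoxia (edgeR adjusted p = 0.70).

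Ligand genes of the receptors were also detected in these cultures. Of 8 listed, 7 were tested, 3 rose and 3 fell, where 11.2% of all tested genes were called higher and 9.72% lower. Of the 3 that rose, 2 would not have passed the filter on low counts by their normoxia libraries alone, so the count is not read as a result. The 3 that fell were abundant class I genes. H2-T23, which encodes the Qa-1 molecule, had 172, 181 and 183 CPM in hypoxia, against 259, 252 and 218 CPM in normoxia (log2 fold change -0.44, SE 0.09, edgeR adjusted p = 0.0054). H2-D1, a classical class I gene whose leader yields the Qa-1 peptide, and H2-K1, a classical class I gene not known as a source of that peptide, had log2 fold changes of -0.36 and -0.47 (edgeR adjusted p = 0.012 and 0.0047), and their counts may be shared with near relatives. In all 3 genes the groups did not overlap.

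The 3 that rose are NKG2D ligand genes at low levels. Raet1d, a RAE-1 gene, had 2.42, 2.55 and 2.51 CPM in hypoxia, against 0.34, 0.33 and 0.24 CPM in normoxia, an 8.20-fold rise (log2 fold change 3.04, SE 0.21, edgeR adjusted p = 2.1e-05). Raet1e had 0.77, 0.47 and 0.80 CPM in hypoxia, against 0.23, 0.20 and 0.13 CPM in normoxia (log2 fold change 1.86, SE 0.34, edgeR adjusted p = 0.0041). H60b had 0.74, 0.45 and 0.34 CPM in hypoxia, against 0.25, 0.07 and 0.07 CPM in normoxia (log2 fold change 1.95, SE 0.50, edgeR adjusted p = 0.021). Raet1e and H60b had fewer than 3 normoxia libraries at the filter's minimum of 10 counts, so their normoxia libraries alone would not have passed them. Their entry into the test leaned on the group where they are high, and their direction is not independent of the filter. The call of H60b was lost without hypoxia replicate 1 (0.077), normoxia replicate 2 (0.086) or normoxia replicate 3 (0.071). The RAE-1 genes have near-identical relatives between which estimated counts may be divided. Ulbp1, the gene of MULT1 and the only abundant NKG2D ligand gene of the list, averaged 224 ± 9.06 CPM under hypoxia and 213 ± 2.93 CPM under normoxia (log2 fold change 0.073, 95% interval -0.085 to 0.23, edgeR adjusted p = 0.52). H60c was not tested, with a mean of 0.070 CPM under hypoxia and 0.056 CPM under normoxia.

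**Figure D5:**
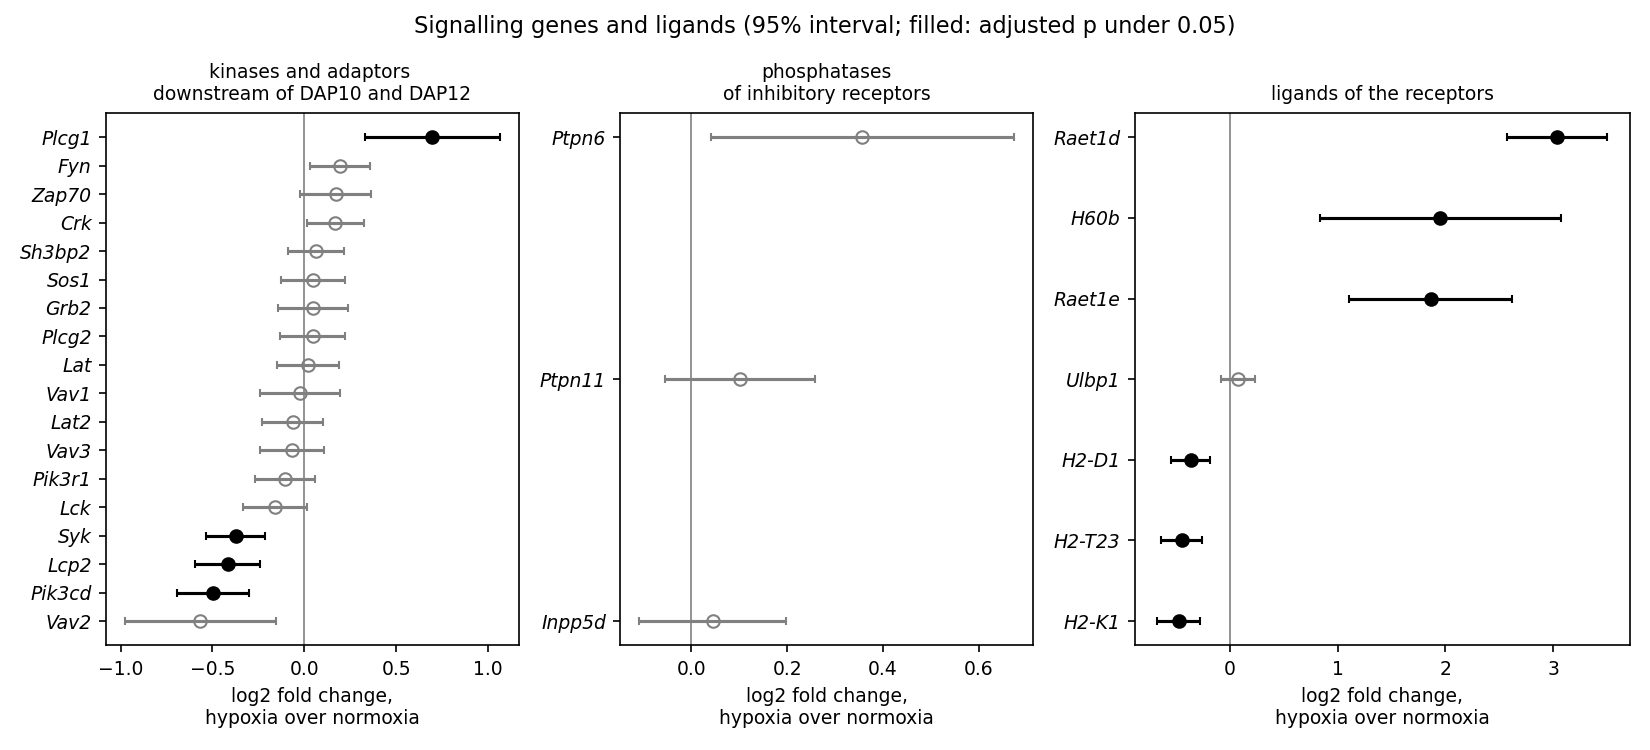
Log2 fold change, hypoxia over normoxia, with 95% interval (horizontal axes, on different scales) for the tested genes of the 3 lists, filled where the edgeR adjusted p is under 0.05. Raet1d stands at 3.04, Ulbp1 at 0.073, and the called signalling genes lie between -0.50 and 0.70.

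The genes whose log2 CPM ran most alike over the 6 libraries were named for 4 of the 10 genes, among 9546 genes averaging at least 5 CPM, with Pearson's r as a description only. For Hcst they were Ppp2r2c, Ccdc97 and Tef (r of 1.00 for each when rounded, all higher in hypoxia). For Klrk1 they were D8Ertd738e, Cnpy2 and Rtcb (r of 1.00, 1.00 and 0.99), for Klrd1 Sept7, Dhx32 and Srp14 (0.97 each) and for Tyrobp Ghitm, Tmem128 and Ebp (0.99 each). These points share their libraries, their scaling and, for Hcst and Klrk1, whose groups did not overlap, the difference between the groups. They were picked as the highest among 9546, so their r is high by choice.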

How the data were processed

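RNA-seq of 6 mouse NK cell culture libraries was used. Per the labels' protocols, libraries were strand-specific mRNA libraries for DNBSEQ. The submitters' processing notes list Trim Galore 0.6.4, kallisto 0.4.6, edgeR 3.17 and the build GRCm39, without roles. The annotation they used is not given in the sources used here. Deposited by the authors were an estimated count per Ensembl gene, not normalized (69.5% of values whole within 1e-06), and a log2 CPM with a prior count of 2 (deposited values from -4.80 to 14.0).

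Symbols came from GENCODE M21 (52029 of 56953 IDs). Counts were rounded, filtered with filterByExpr (minimum count 10, minimum total 15), scaled with TMM and tested in edgeR 4.0.16 (quasi-likelihood F-test) over 15591 genes (Benjamini-Hochberg, threshold 0.05), without covariates. Standard errors were obtained by dividing the size of the log2 fold change by the root of F, and 95% intervals use the test's degrees of freedom. Levels are TMM-scaled CPM. Ratios used counts plus 0.5. Alternatives used DESeq2 1.42.0 and limma 3.58.1.

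The genes and lists were chosen with earlier results of these data known. Named genes were the 10 receptor and adaptor genes, called list members, the 2 most abundant uncalled members of the list of kinases and adaptors, the 2 most abundant markers per cell type, chromosomal neighbours and the 3 genes most alike; others were chosen after their values were seen. Same-numbered libraries deviated together from their group means (correlations across genes of 0.47, 0.33 and 0.30, criterion 0.1). Of the pairs with different numbers, hypoxia replicate 2 with normoxia replicate 3 also passed this criterion (0.12), and the lowest value was -0.35. The replicate numbers of the labels were taken to pair the libraries, a choice made from these same data, and the replicate block is an alternative. Libraries of the same group differed beyond sampling noise (chi-square per gene, averaged, 12.4 to 59.2). The test was also tested on simulated data. It recovered 5 of 50 genes changed 1.25-fold, 21 of 40 changed 1.5-fold, 45 of 59 changed 2-fold and 48 of 51 changed 4-fold. A gene that was not called is therefore not shown to be unchanged.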

Additional observations from a re-analysis of the deposited data

How the results depend on the processing

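The call of Hcst and its direction held in all 15 settings. The number of the 10 genes called lower, 1 in the fit reported, was 2 with no filter on low counts and with limma-voom, 3 with the DESeq2 Wald test, 4 with the replicate block, and 0 to 2 when single libraries were left out; the cause was not tested. When single libraries were left out the log2 fold change of Klrc2 ran from -0.033 to 0.071 and that of Tyrobp from -0.20 to 0.020. The 3 Klrc genes summed into 1 feature, of which Klrc1 is the most abundant, had -0.085, and Klrc2 and Klrc3 summed without Klrc1 had 0.042. The log2 difference of Klri1 over Klri2 ran from -0.10 to 0.048 when single libraries were left out. The other 5 ratios kept their sign when single libraries were left out and with an offset of 5 counts. For a ratio the replicate block is the mean of paired differences. With complete pairs this equals the difference of group means (-0.95 for Klrk1 over Hcst), so it could not change a ratio and is no check on it.

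All tested genes called higher and lower numbered 2988 and 3120 with the replicate block, 1146 to 1980 and 804 to 1636 when single libraries were left out, and 2384 and 998 with library size only, with 2385 and 987 for limma-trend on the deposited log2 CPM. Kinases and adaptors called higher were 3 with library size only (Fyn, Plcg1 and Crk) and with limma-trend, 4 with the replicate block, 2 without both replicate 1 libraries and 0 to 1 when single libraries were left out; those called lower were 5 with the replicate block. Ligand genes called higher fell to 1 with the stricter filter (1 CPM in 3 libraries), where Raet1e and H60b were not tested. Of the phosphatase genes 1, Ptpn6, was called higher with no filter, with the replicate block and without both replicate 1 libraries, and 0 to 1 when single libraries were left out. Beside the calls given here and in the report, the replicate block changed no other call among the 10 genes.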
